A study of Mus musculus with 36 samples.

Results

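The genes described here encode the proteins of the cytosolic ribosome. They were taken as the protein-coding entries of the gene count table whose mouse symbols name a protein of the large subunit (Rpl), the small subunit (Rps and Rpsa) or the stalk (Rplp0, Rplp1 and Rplp2), leaving out the S6 kinases, whose symbols begin with Rps6k. This gave 80 of 53421 genes, 46 for the large subunit, 31 for the small subunit and 3 for the stalk, chosen by name and biotype only. The cells of every group were a mouse fibroblast-like chondrocyte line with no stated deletion, transfected with a pool of non-targeting siRNAs (NT) or with an siRNA pool against Ift88 (IFT88siRNA). After growth to confluence they received IL-1β at 10 ng/ml for 24 h, 8 h, 4 h, 2 h or 1 h, and the 0 h groups received none. Messenger RNA was sequenced with paired ends from 3 libraries in each of 12 groups, 36 in all. The siRNA dose is 50 nM in the sample labels, while the study's methods give a lower one, and a pool lowers a transcript in a mixed population, so IFT88siRNA cells were depleted of Ift88 and not null for it.

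Ribosomal proteins fold around the ribosomal RNAs, and because a ribosome holds nearly all of them once, cells make them in near equal numbers from genes scattered over the genome. Their mRNAs are abundant in growing cells and begin with a run of pyrimidines, the terminal oligopyrimidine (TOP) tract, through which mTOR signalling and the RNA-binding protein LARP1 control their translation. Some members also act outside the ribosome: Rpl5 and Rpl11 bind MDM2, which restrains p53, and Rps3 can associate with NF-κB. IL-1β activates NF-κB and MAP kinases, and IFT88 belongs to the intraflagellar transport machinery of the primary cilium.

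The 5′ ends are shown because the TOP tract is the sequence for which the family is known. By symbol, 60 of the 80 members matched the RefSeq promoter table (build GRCm38.p6), at 72 annotated starts, since 10 members had more than 1. Each line gives 10 bases before the annotated start and 20 from it on, along the gene, with the pyrimidines that run unbroken from the start base in capitals. The first 6 are the longest runs among the matched starts, and the others belong to members whose values are described further on. Rps24 and Rps27l each have another annotated start, not printed, with no run.
Rpl27a, chr7:109519185-109519214, plus strand: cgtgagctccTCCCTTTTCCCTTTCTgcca
Rpl15, chr14:18270967-18270996, minus strand: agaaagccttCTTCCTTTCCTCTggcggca
Rpl35, chr2:39005112-39005141, minus strand: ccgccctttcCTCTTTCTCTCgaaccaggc
Rps10, chr17:27635225-27635254, minus strand: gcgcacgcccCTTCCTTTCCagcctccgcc
Rps6, chr4:86857348-86857377, minus strand: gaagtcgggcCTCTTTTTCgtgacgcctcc
Rps18, chr17:33955646-33955675, minus strand: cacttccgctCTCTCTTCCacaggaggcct
Rps27, chr3:90213629-90213658, minus strand: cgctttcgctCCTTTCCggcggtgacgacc
Rps24, chr14:24490668-24490697, plus strand: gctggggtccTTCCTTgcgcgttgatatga
Rps2, chr17:24720053-24720082, plus strand: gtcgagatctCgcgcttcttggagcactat
Rpl39, chrX:37085203-37085232, minus strand: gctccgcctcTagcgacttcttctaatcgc
Rps27l, chr9:66946076-66946105, plus strand: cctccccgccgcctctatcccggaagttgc
Rps23, chr13:90923112-90923141, plus strand: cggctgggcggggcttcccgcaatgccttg

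At least 5 pyrimidines ran from the start base at 16 of the 72 member starts, 22.2%, against 4.44% of the 32851 promoters in the table. At least 8 did so at 10 starts, 13.9%, against 1.36%. Rpl27a, of the large subunit, had the longest run at the 72 starts, with 16 bases. Rps27l, the paralogue of Rps27 that is known as a p53 target, had none at either annotated start. Runs were counted with C or T as the first base, and that of Rpl27a begins with T. The start base was C at 27.8% of member starts and 16.3% of all promoters. Annotated starts can lie some bases from the one a cell uses, so a missing run describes the annotation. In the 250 bases before and 50 bases from the start, on both strands, the ETS core CTTCCGG was found at 36.1% of member starts and 8.86% of all promoters, and the YY1 core AAGATGG at 15.3% and 6.34%. The Sp1 core GGGCGG was found at 58.3% and 35.7%, and the TATA box TATAAA at 8.33% and 13.6%. None of these motifs contains another, although adjoining matches can share end bases, and a match describes letters and not a bound factor. Median log2 changes of the 16 tested members with a run of at least 5 and the 41 with a shorter one were -0.19 and -0.15 in NT at 1 h, -0.12 and -0.16 at 4 h, -0.04 and -0.08 at 8 h, 0.23 and 0.23 at 24 h, and 0.18 and 0.19 between IFT88siRNA and NT at 1 h.

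The libraries held 19337022 to 38304127 counts on genes, with medians of 21672804 in NT and 25873754 in IFT88siRNA. At 0 h NT libraries held 20223532 to 21906468 and IFT88siRNA libraries 25864798 to 26699475. At 1 h they held 19337022 to 23736137 and 24636891 to 27468632. The ranges overlapped at the other times, and the part of depth in the results was not tested. Ift88 stood at 9.0 ± 0.366 counts scaled to library size (CPM; mean ± SD, n = 3) in NT at 0 h and at 2.75 ± 0.164 in IFT88siRNA. The 6 fibroblast markers stood at 12.4 (Thy1) to 2177 (Vim) TPM, transcript abundance scaled to length and library size, in NT at 0 h. Of the chondrocyte markers, Col11a1, Sox9, Col2a1, Comp and Hapln1 were detected at 8.13 to 45.2 TPM, while Acan, Matn3 and Col9a1 were near 0 with 0.126, 0.132 and 0.0439 TPM. Of 11 markers of blood, endothelial and epithelial cells, Cd68 and Lyz2 were above 1 TPM in NT at 0 h, at 10.7 and 2.25, while Adgre1 and Cd3e were listed at 0. Epithelial Cdh1 moved with time, its NT libraries standing at 0.639 to 0.846 TPM at 0 h, 4.44 to 6.96 at 4 h and 0.138 to 0.308 at 24 h, and the IFT88siRNA libraries at 0.887 to 1.22, 4.25 to 4.98 and 0.248 to 0.27. The sum of the 3 epithelial markers was 1.05 to 1.47, 5.2 to 7.62 and 0.385 to 0.42 TPM at these times in NT, and its part in the results was not tested. The labels do not say whether the 3 libraries of a group came from separate cultures, so p-values measure the spread between these libraries. NT replicate 2 at 2 h stood apart from the other NT libraries of that time, with 1.37% of counts on ribosomal protein genes against 1.28% and 1.22%, and the IFT88siRNA libraries at 24 h held 1.78%, 1.84% and 2.03%, replicate 3 standing highest. Counts at these times are also given without these libraries.

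Of the 80 members, 77 passed the filter on low counts in every fit. The other 3 are paralogues known mainly from muscle or testis: Rpl3l had at most 12 counts in a library, Rpl39l at most 11 and Rpl10l at most 1. Their widely expressed partners stood at 467 ± 15.8 TPM for Rpl3, 463 ± 14.8 for Rpl39 and 252 ± 27.5 for Rpl10 in NT at 0 h (mean ± SD, n = 3).

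By TPM, which accounts for transcript length, the 5 most abundant members in NT at 0 h included the stalk protein gene Rplp1 at 2324 ± 59.8, the large subunit genes Rpl13 at 1799.8 ± 26.1 and Rpl41 at 1722 ± 60, and the small subunit gene Rps15 at 1648 ± 29.7 (SD, n = 3). Of these, Rpl13 and Rpl41, and Rpl41 and Rps15, differed by less than the sum of their SDs. The lowest members apart from the 3 paralogues were Rpl27 at 86.3 ± 3.39, Rps27 at 86.1 ± 34.1, Rps12 at 56.6 ± 3.78, Rpl5 at 51.8 ± 0.45 and Rpl12 at 47.2 ± 2.98 TPM. Here Rps27 did not differ from Rpl27, Rps12 or Rpl5 by more than the sum of their SDs.

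Counts per kilobase of exon gave another order. The length here was that of all annotated exons of a gene together, which can exceed that of any 1 transcript. It was 3526 bases for Rpl35a and 3598 for Rpl12. Only Rplp1 and Rps15 of the 5 members highest by TPM were also among the 5 highest by counts per kilobase, where Rplp0, Rpl4 and Rpl8 took the other places. Relative to the family, Rpl13a was 14.2 times, Rpl35a 10.1 times and Rpl24 8.82 times lower by counts per kilobase than by TPM. In the other direction Rpl5 and Rpl12, among the lowest by TPM, had 4907 and 4824 counts on average in NT at 0 h, against 571 for Rpl13a. Relative to the family median, Rps27, Rps12 and Rpl27 stood at 0.133, 0.0876 and 0.134 by TPM. By counts per kilobase they stood at 1.19, 0.602 and 0.77. The count table holds 294 entries named as pseudogenes of ribosomal protein genes, 218 of them with counts, which took 0.0552% to 0.0945% of a library. The counter's default settings leave out reads that align at several places, and the transcript quantifier shares such reads out. The levels of the members named in this paragraph, with Rps27, Rps12 and Rpl27 among them, are therefore uncertain. The parts of these reads and of the exon length in the discrepancy were not tested.

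**Figure D1:**
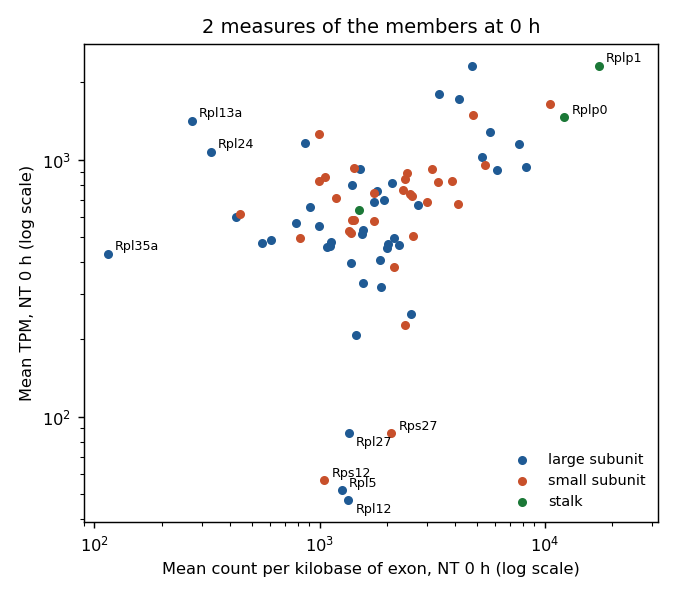
Mean TPM against mean count per kilobase of exon for the detected members in the 3 NT libraries at 0 h, both on log axes, colored by subunit. Rpl13a, Rpl24 and Rpl35a have few counts for their TPM, and Rpl12, Rpl5, Rps12, Rps27 and Rpl27 have the lowest TPM.

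The share of counts on these genes was taken first, to follow it as cells respond to IL-1β. In NT cells the 80 genes took 1.59%, 1.53% and 1.62% of counts at 0 h. They took 1.23%, 1.24% and 1.21% at 1 h and 1.17%, 1.15% and 1.2% at 4 h. At 24 h they took 1.87%, 1.72% and 1.82%. Every NT library at 1 h, 2 h, 4 h and 8 h lay below every library at 0 h, and every library at 24 h above. The ratio to the 0 h mean was 0.775 ± 0.025 at 1 h, 0.74 ± 0.0271 at 4 h and 1.14 ± 0.0579 at 24 h (± SD, n = 3 per group). By TPM, which accounts for length, the NT libraries held 5.71%, 5.61% and 5.86% at 0 h. The ratios of TPM shares were 0.779 at 1 h, 0.749 at 4 h and 1.09 at 24 h. The level of the share thus depends on the measure, and the share of counts is not the share of mRNA molecules. In bulk RNA a share is relative to all other transcripts, and less RNA from these genes cannot be told apart from more RNA of other genes. The 50 most abundant genes took 9.82% to 9.95% of NT counts at 0 h and 12.4% in each library at 1 h, and their part in the fall was not tested.

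IFT88siRNA libraries had 1.56%, 1.66% and 1.63% of counts on the family at 0 h, which overlapped with NT. At 1 h they had 1.41%, 1.39% and 1.4%, and at 4 h 1.36%, 1.34% and 1.26%. These lay below IFT88siRNA at 0 h but above every NT library of the same time. At 8 h the IFT88siRNA libraries overlapped with their 0 h group and lay above every NT library, with 1.61%, 1.54% and 1.54% against 1.46%, 1.38% and 1.48% in NT. The ratio of IFT88siRNA to NT was 1.02 ± 0.0438 at 0 h, 1.14 ± 0.0193 at 1 h, 1.12 ± 0.051 at 4 h, 1.09 ± 0.0475 at 8 h and 1.04 ± 0.0855 at 24 h. At 2 h it was 1.07 ± 0.0664 and the groups overlapped, NT standing at 1.28%, 1.37% and 1.22% and IFT88siRNA at 1.4%, 1.36% and 1.37%.

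**Figure D2:**
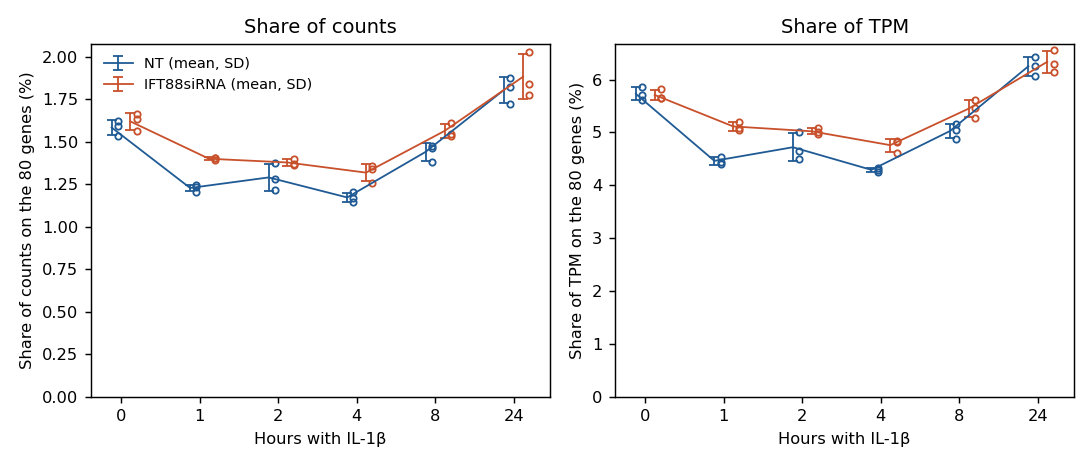
Share of counts (left) and of TPM (right) on the 80 genes by hours with IL-1β, times evenly spaced, with circles for the 3 libraries of a group and lines with bars for mean and SD. In NT both shares are below 0 h at 1 h to 8 h and above it at 24 h, and at 1 h, 4 h and 8 h every IFT88siRNA library lies above every NT library.

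The change of each member from 0 h in NT cells was then tested with edgeR's quasi-likelihood test on counts scaled by the trimmed mean of M values (TMM), and a member was called where the p adjusted over all genes was under 0.05. At 1 h most called members fell: 1 rose and 44 fell, against 26.0% and 25.8% of all genes. At 4 h 1 rose and 40 fell, against 31.2% and 29.7% of all genes. At 24 h 64 rose and 1 fell, against 21.7% and 23.2% of all genes. The median log2 change of the 77 members was -0.15 at 1 h, -0.14 at 4 h and 0.24 at 24 h, where all genes tested had medians of -0.01, -0.02 and -0.02. At 2 h 5 rose and 10 fell, against 30.7% and 30.2% of all genes, and at 8 h 4 rose and 18 fell, against 27.1% and 25.3% of all genes, with member medians of 0.01 and -0.06. At 2 h the counts were 2 higher and 16 lower without NT replicate 2, with a median of -0.04, and 19 higher and 5 lower without NT replicate 3, with a median of 0.06, so the sign of the 2 h median rested on single libraries. The total of 22 called at 8 h was 12 without NT 0 h replicate 3 and 14 without NT 8 h replicate 2. Over the 5 times together 76 of 77 members were called, against 88.4% of all genes. Only Rps27l also changed by more than 1.5-fold, at 4 h and 8 h, as 12.4% and 7.87% of all genes did in that direction.

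All 3 libraries lay below all 3 at 0 h for 54 of 77 members at 1 h and 54 at 4 h, against 30.3% and 35.5% of all genes, and all 3 lay above for 69 at 24 h, against 31.1%. Both subunits took part: 22 of 43 tested large subunit genes and 20 of 31 small subunit genes fell at 1 h, and 37 and 24 rose at 24 h. The early counts depended on the scaling. With upper-quartile scaling they were 0 higher and 67 lower at 1 h, 0 higher and 32 lower at 2 h and 1 higher and 71 lower at 4 h, and on the log2(TPM + 1) scale, tested with limma, 0 higher and 74 lower, 0 higher and 72 lower and 0 higher and 71 lower. These scalings also moved the median of all genes at 1 h, 2 h and 4 h, to -0.09, -0.12 and -0.14 with upper-quartile scaling and to -0.14, -0.22 and -0.22 with TPM. The member medians on the same scales were -0.23, -0.10 and -0.26, and -0.35, -0.27 and -0.41. At 8 h TPM gave 0 higher and 52 lower and at 24 h 39 higher and 1 lower. Shares of all genes called in NT under these scalings are not given, so the counts show only how calls depend on scaling.

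Rps27l fell furthest. Its CPM was 137, 122 and 143 at 0 h, 84.5, 80.9 and 83.1 at 4 h and 84.9, 74.2 and 73.6 at 8 h. Both later groups lay wholly below 0 h, with log2 changes of -0.66 (SE 0.08, adjusted p = 5.4e-08) and -0.77 (SE 0.08, adjusted p = 5.7e-09), the latter 0.585 of the 0 h level. At 24 h its libraries, at 128, 105 and 129, overlapped with 0 h, and it was the 1 member called lower there, by 0.19 (SE 0.07, adjusted p = 0.037). It had also fallen by 0.49 at 1 h and 0.34 at 2 h (SE 0.08 and 0.08). Its paralogue Rps27, a zinc-binding protein of the small subunit, had 91, 92.1 and 92.2 CPM at 0 h and 82.3, 82.9 and 88.3 at 4 h, and its change of -0.09 (SE 0.07) was not called.

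Rps27a, which encodes ubiquitin fused to a small subunit protein, stood at 113, 115 and 118 CPM at 0 h and 89.6, 87.7 and 86.2 at 1 h. The large subunit gene Rpl14 went from 135, 139 and 148 to 109, 108 and 109 CPM. Neither gene's 1 h libraries reached the 0 h range, and the log2 changes were -0.40 (SE 0.05, adjusted p = 2.2e-07) and -0.38 (SE 0.05, adjusted p = 1.2e-06). Rpl13a, whose protein takes part in silencing inflammatory mRNAs in myeloid cells, had 25.4, 22.8 and 24.3 CPM at 0 h and 16.4, 17.7 and 18.6 at 4 h, again without overlap, and a change of -0.43 (SE 0.08, adjusted p = 2.8e-05), after -0.33 at 2 h, on counts that are low for its TPM. Rpl35a, of the large subunit and with the same limit, fell by 0.31 at 2 h (SE 0.07). Rpl39, a small protein at the peptide exit tunnel, fell by 0.32 at 4 h and 0.25 at 8 h (SE 0.06 and 0.06). Rps19, the gene most often mutated in Diamond-Blackfan anaemia, went from 204, 189 and 197 CPM at 0 h to 148, 142 and 156 at 8 h, wholly below, a change of -0.39 (SE 0.06, adjusted p = 3.6e-06).

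A few members moved the other way. Rpl10a, which forms the L1 stalk where tRNAs leave, had 194, 185 and 192 CPM at 0 h and 221, 226 and 233 at 4 h, without overlap, and rose by 0.28 (SE 0.04, adjusted p = 5.4e-06). Rpl10, one of the last proteins to join the large subunit, was the 1 member called higher at 1 h, going from 225, 217 and 223 to 241, 253 and 229.7 CPM, a change of 0.12 (SE 0.04, adjusted p = 0.024), a call lost under 7 of 14 alternatives. At 2 h Rps28, of the small subunit, Rpl10 and Rpl10a were called higher by 0.21, 0.18 and 0.17, but on the log2(TPM + 1) scale these values were -0.07, -0.07 and -0.09 and were not called. At 8 h the largest rises were those of Rps23, Rps18 and Rpl10a, by 0.18, 0.16 and 0.16 (SE 0.06, 0.06 and 0.04). These calls were lost under 7, 7 and 4 of 14 alternatives, for Rps23 and Rps18 also on the TPM scales.

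Rps2 and Rps23 were among the 3 members with the largest rise at 24 h. Rps2, at the mRNA entry side of the small subunit, had 194, 182 and 180.1 CPM at 0 h and 266, 233 and 243 at 24 h, and rose by 0.37 (SE 0.07, adjusted p = 1.0e-04). Rps23, at the decoding centre, went from 129, 121 and 134 to 185, 154 and 169.7 CPM and rose by 0.36 (SE 0.06, adjusted p = 4.0e-05). For neither gene did the groups overlap. The stalk genes Rplp0, Rplp1 and Rplp2 rose by 0.33, 0.32 and 0.30 (SE 0.05, 0.06 and 0.07), after changes of -0.21, -0.35 and -0.15 at 1 h, of which that of Rplp2 was not called. Rps6, the S6 kinase substrate, rose by 0.23, and Rps3, Rpl5 and Rpl11, with known roles in NF-κB or p53 control, by 0.28, 0.25 and 0.20. These 4 had fallen at 1 h, by 0.20, 0.18, 0.22 and 0.17. The RNA-binding Rpl22, the laminin receptor Rpsa, Rpl3 at the peptidyl transferase centre and the X-linked Rps4x rose at 24 h by 0.17, 0.25, 0.23 and 0.21, and the very short Rpl41 by 0.28.

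The same contrasts were then tested in IFT88siRNA cells. At 1 h 3 rose and 6 fell, against 21.6% and 21.6% of all genes. At 2 h 13 rose and 2 fell, against 28.9% and 28.5% of all genes, and at 4 h 5 rose and 9 fell, against 30.4% and 29.4% of all genes. At 8 h 11 rose and 3 fell, against 25.5% and 22.3% of all genes. At 24 h 66 rose and 1 fell, against 18.9% and 20.9% of all genes. The member medians were -0.01, 0.06, -0.01, 0.03 and 0.24 in the same order of times. The split before 24 h depended on the scaling, as upper-quartile scaling gave 1 higher and 24 lower at 1 h, 2 higher and 13 lower at 2 h, 2 higher and 41 lower at 4 h and 3 higher and 9 lower at 8 h, and TPM gave 0 higher and 54 lower, 0 higher and 56 lower, 0 higher and 63 lower and 3 higher and 21 lower. At 24 h they gave 60 higher and 1 lower and 48 higher and 1 lower. The shares of all genes called under these scalings are not given, so these counts show only the dependence on scaling. Without IFT88siRNA 24 h replicate 3, 49 members were called at 24 h, and leaving out any 1 library gave 49 to 68. The counts before 24 h rested on single libraries. The total of 9 at 1 h was 5 without IFT88siRNA 0 h replicate 2 and also without its replicate 3, that of 15 at 2 h was 8 without 2 h replicate 1, and that of 14 at 4 h was 9 without 4 h replicate 3 and also without 0 h replicate 3. The total of 14 at 8 h was 7, 9 and 6 without 0 h replicate 1, 0 h replicate 2 and 8 h replicate 1.

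Rps2 and Rps23 rose at 24 h in these cells too, by 0.31 and 0.37 (SE 0.08 and 0.06). Rps27l had 123, 116 and 123 CPM at 0 h, 104, 105 and 95.9 at 4 h and 92.6, 95.2 and 93.4 at 8 h. The later libraries lay below 0 h, yet above every NT library of the same time, and the changes were -0.24 (SE 0.05, adjusted p = 1.0e-04) and -0.36 (SE 0.05, adjusted p = 7.6e-07).

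**Figure D3:**
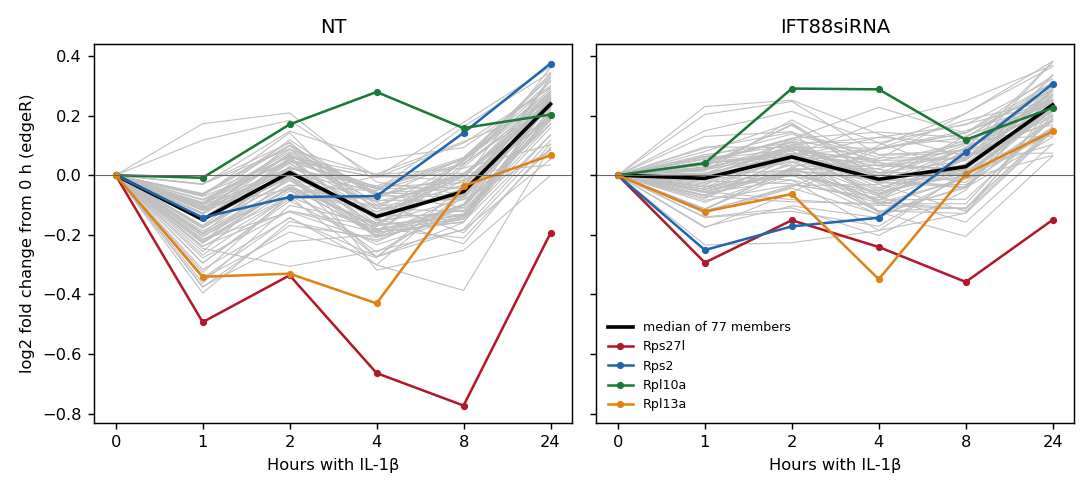
Log2 fold change from 0 h of the 77 tested members (gray) and their median (black) in NT (left) and IFT88siRNA (right) on TMM-scaled counts, times evenly spaced, with Rps27l, Rps2, Rpl10a and Rpl13a in color. The NT median is -0.15 at 1 h and -0.14 at 4 h, the IFT88siRNA median -0.01 and -0.01, both reach 0.24 at 24 h, and Rps27l is lowest in NT at 8 h.

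IFT88siRNA was next set against NT at each time. The NT libraries of each time also enter the NT time course, so these comparisons share samples. At 1 h, of 77 members 64 were higher and 0 lower, against 8.75% and 10.2% of all genes, with a median of 0.19. All IFT88siRNA libraries lay above all NT libraries for 70 members, against 25.5% of all genes. The called members were 34 of 43 large subunit genes, 27 of 31 small subunit genes and all 3 stalk genes, and none changed by over 1.5-fold. Leaving out 1 library gave 50 to 64 members. The log2(TPM + 1) scale gave 44 higher and 1 lower, but 1 without a minimum level, with a median of 0.20.

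At 4 h 31 were higher and 0 lower, against 1.47% and 2.38% of all genes, with a median of 0.17, and 59 members did not overlap, all IFT88siRNA libraries being higher, against 13.9%. This count rested on single libraries, being 4 without IFT88siRNA replicate 1, 6, 5 and 13 without NT replicates 1, 2 and 3, and 52 without IFT88siRNA replicate 3, while the median stayed between 0.15 and 0.21. TPM called 2 members. At 8 h 6 were higher and 0 lower, against 1.66% and 2.58% of all genes, with a median of 0.12 and 43 members without overlap, against 14.3%. The 8 h count was 30 without IFT88siRNA replicate 3 and 0 to 2 without any other library. Shares of all genes called without single libraries were not computed, so these counts show only how calls depend on libraries.

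At 2 h edgeR called 0 members in either direction, against 0.835% and 1.93% of all genes, with a median of 0.09. At an unadjusted p under 0.05 there were 16 members, and DESeq2 called 2, with the shares of all genes not given. Without NT replicate 2, 28 members were called, all higher, with a median of 0.14, and without any other library 0. At 0 h 5 were higher and 2 lower, against 10.1% and 9.43% of all genes, with a median of 0.05, and the count was 0 to 3 without an NT library, lowest without replicate 3, 3 without IFT88siRNA replicate 3 and 19 without IFT88siRNA replicate 1. At 24 h 1 member was higher and 0 lower, against 3.64% and 5.02%, with a median of 0.03 and a count of 6 without NT replicate 1 and of 0 without NT replicate 3 or IFT88siRNA replicates 2 or 3.

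**Figure D4:**
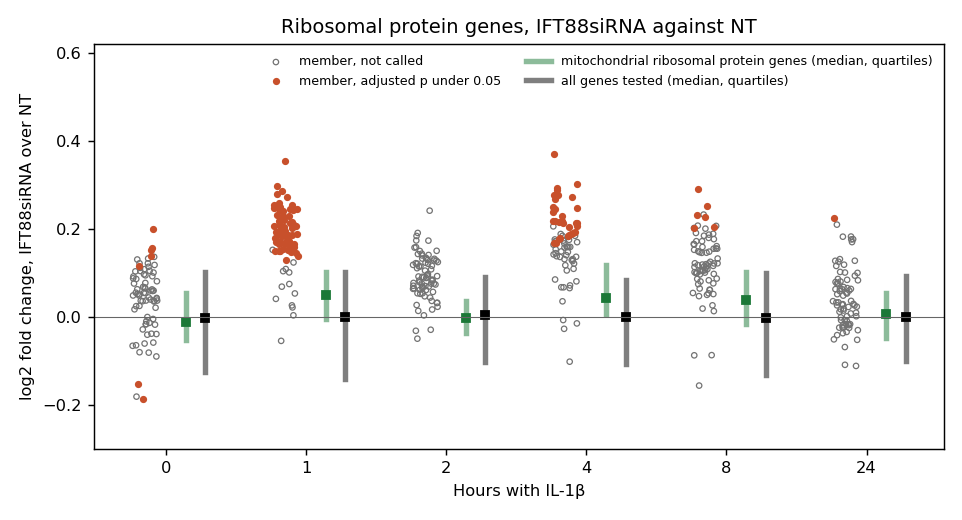
Log2 difference between IFT88siRNA and NT of the 77 tested members at each time, filled where the adjusted p was under 0.05, beside median and quartiles of the mitochondrial ribosomal protein genes (green) and of all genes tested (black). Members lie mostly above 0 at 1 h (64 called higher), 4 h (31) and 8 h (6), while the all-gene median stays near 0.

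Rps27 had the largest difference at 1 h, with 86.6, 86.6 and 82.6 CPM in NT and 119, 107 and 111 in IFT88siRNA, without overlap. Its log2 difference was 0.35 (SE 0.04, adjusted p = 6.3e-05) on counts but -0.87 on the log2(TPM + 1) scale (adjusted p = 0.59, limma), where its SD in NT at 0 h was 34.1 on a mean of 86.1 TPM. The large subunit gene Rpl23 stood at 154, 160.3 and 147 CPM in NT and 207, 186 and 191 in IFT88siRNA, a difference of 0.30 (SE 0.04, adjusted p = 2.6e-04). Rpl19, also of the large subunit, stood at 189.6, 189 and 182 and 244, 234 and 227 CPM, a difference of 0.29 (SE 0.04, adjusted p = 1.5e-04). The groups did not overlap for either gene. Of members with roles outside the ribosome, Rps3, Rpl22, Rpl5 and Rps6 were higher at 1 h by 0.25, 0.25, 0.21 and 0.17, whereas Rpl11 and Rpl13a, at 0.05 and 0.03, were not called.

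At 4 h Rpl39 differed most, with 51.2, 53.3 and 55.4 CPM in NT and 71.7, 73.3 and 65.1 in IFT88siRNA, without overlap, a log2 difference of 0.37 (SE 0.06, adjusted p = 0.001). Rps27 and the zinc-binding Rps29 were higher by 0.30 and 0.29 (SE 0.05 and 0.07). At 8 h the largest differences were those of Rps27, Rps27l and the large subunit gene Rpl37a, at 0.29, 0.25 and 0.23 (SE 0.05, 0.06 and 0.05). Rpl39 was the 1 member called at 24 h, at 0.22 (SE 0.06, adjusted p = 0.035). At 0 h Rps29 and Rps15 were higher by 0.20 and 0.16, and Rpl13a and Rps27l differed by -0.19 and -0.15.

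Whether the change from 0 h itself differed between IFT88siRNA and NT was tested as an interaction over all 36 libraries, where a positive value is a smaller fall or a larger rise in IFT88siRNA. At 1 h 4 members passed, all positive, against 0.784% of all genes in that direction and 1.59% in the other: Rps27a at 0.28, Rpl17 of the exit tunnel at 0.27, Rps24, also mutated in Diamond-Blackfan anaemia, at 0.23 and the large subunit gene Rpl9 at 0.23 (adjusted p = 0.041, 0.047, 0.033 and 0.044, edgeR). None of these 4 passed without any 1 replicate of every group, and Rpl17 lost its call under 9 of 13 alternatives. At 4 h 4 passed, against 0.323% and 0.862%: Rps27l at 0.43, Rps27a at 0.32, Rpl12 at the base of the stalk at 0.31 and Rps24 at 0.24. At 8 h Rps27l passed, at 0.42 (SE 0.09, adjusted p = 0.015), against 0.425% and 0.569%. At 2 h and 24 h edgeR and DESeq2 called 0 members, against 0.401% and 0.844% of all genes at 2 h and 0.108% and 0.233% at 24 h by edgeR. At an unadjusted p under 0.05 there were 8 and 0 members, with the shares of all genes not given. Over the 5 times together 4 members passed, against 5.53% of all genes.

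The estimate was positive for 76 of 77 members at 1 h and 74 at 4 h, with medians of 0.15 and 0.13, and of 0.00 and 0.01 over all genes. On the log2(TPM + 1) scale 27 members passed as positive at 1 h and 10 at 4 h, and the share of all genes on that scale is not given. Rps24 had 259, 255 and 273 CPM in NT at 0 h and 221, 219.9 and 215 at 1 h. In IFT88siRNA it had 251, 246 and 257 at 0 h and 261, 244 and 250.4 at 1 h. The NT groups did not overlap, the IFT88siRNA groups did, and at 1 h every IFT88siRNA library lay above every NT library. Leaving out replicate 1 or replicate 3 of every group left 0 members past the threshold at 1 h.

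**Figure D5:**
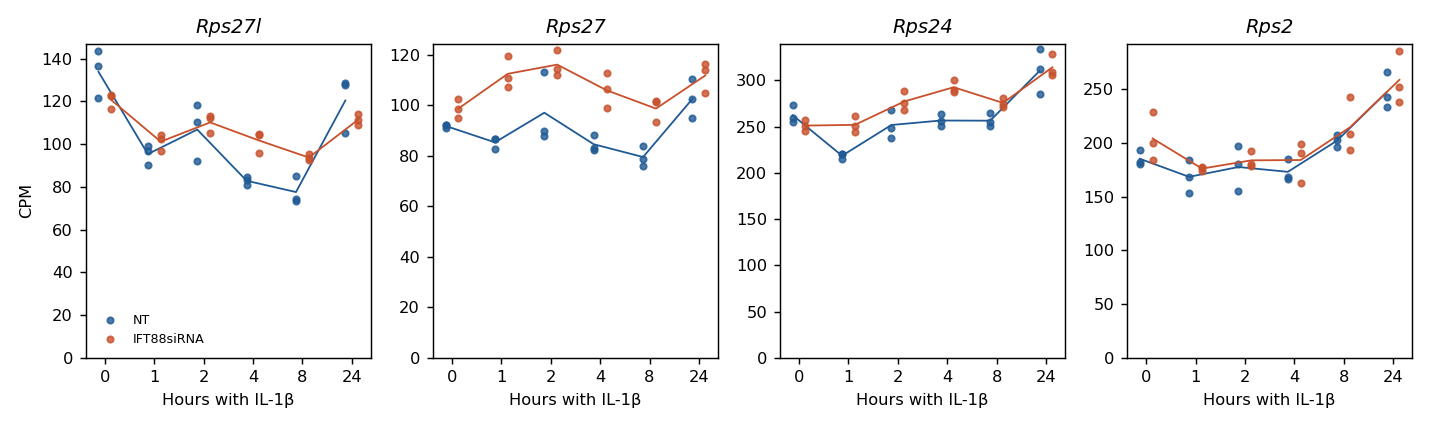
CPM of Rps27l, Rps27, Rps24 and Rps2 in every library (points) with group means (lines) in NT (blue) and IFT88siRNA (orange), times evenly spaced. Rps27l is lower in NT than in IFT88siRNA at 4 h and 8 h, Rps27 and Rps24 lie above NT in IFT88siRNA at 1 h and 4 h, and Rps2 is higher at 24 h than at 0 h in both.

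The gene lists that follow are to be read against the shares of all genes called higher and lower in the same comparison, which were 26.0% and 25.8% in NT at 1 h, 31.2% and 29.7% at 4 h, 27.1% and 25.3% at 8 h and 21.7% and 23.2% at 24 h, and 10.1% and 9.43% between IFT88siRNA and NT at 0 h and 8.75% and 10.2% at 1 h. Mitochondrial ribosomal proteins come from other nuclear genes. Of 77 tested, 37 fell and 3 rose at 1 h in NT, and 27 rose and 2 fell at 24 h. Between IFT88siRNA and NT 3 were higher and 2 lower at 1 h, with a median of 0.05, against 64 and 0 of the cytosolic genes. Short genes were also counted, with length taken over all annotated exons of a gene. Of 245 tested protein-coding genes outside the family with under 1000 bases of exon, 24 were higher and 15 lower between IFT88siRNA and NT at 1 h, with a median of 0.05. By this measure members ranged from 383 bases for Rpl36 to 6270 for Rps15a, and most exceeded 1000. The short genes are thus not matched to the family in length, and the part of length was not tested with them.

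Of 18 translation genes with TOP mRNAs outside the family, 8 fell and 5 rose at 1 h in NT, 10 rose and 0 fell at 24 h, and 10 were higher and 1 lower in IFT88siRNA at 1 h. Pabpc1, the poly(A)-binding protein, changed by -0.48 at 1 h and 0.72 at 24 h in NT. The elongation factor Eef1a1 was higher by 0.23 in IFT88siRNA at 1 h. Of 8 ribosomal proteins and relatives that the naming rule leaves out, 5 rose and 1 fell at 24 h in NT, and 4 were higher and 1 lower in IFT88siRNA at 1 h. Host genes of small nucleolar RNAs also have TOP transcripts, and of 8 tested 6 fell at 1 h in NT, led by Snhg5 at -1.03, and 4 rose at 8 h. In IFT88siRNA 5 were lower at 0 h, and at 1 h edgeR called 0, with 0 at an unadjusted p under 0.05.

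Ribosome assembly factors process the subunits without staying in them. Of 39, 33 fell and 1 rose at 1 h in NT, but 31 rose and 2 fell at 4 h, when 40 ribosomal protein genes fell, and 36 and 33 rose at 8 h and 24 h. The largest change at 4 h was that of Sdad1, at 1.61. In IFT88siRNA 24 were lower and 0 higher at 0 h, and 13 and 0 at 1 h, with Rrp12 at -0.39 and -0.30. Of 13 genes of RNA polymerase I and its factors, 6 fell and 1 rose at 1 h in NT, 10 rose and 1 fell at 4 h, and 5 were lower in IFT88siRNA at 0 h. Among 20 genes of growth and TOP mRNA control, 9 rose and 7 fell at 1 h in NT, with the growth regulators Myc at 1.23 and Mycn at -1.78 and the mTOR inhibitor Ddit4 at -1.16. In IFT88siRNA 3 of these were higher and 1 lower at 1 h, with the translation repressor Eif4ebp2 at 0.34 and Myc at 0.13, and Myc stood at -0.33 at 0 h.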

How the data were processed

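The authors aligned reads with HISAT2 2.1.0 to GRCm38 and deposited gene counts from featureCounts (Subread 1.6.3, default parameters), as well as TPM values that the authors computed with Salmon 0.9.1. Libraries were grouped by siRNA and time from the labels, n = 3. Counts were filtered with filterByExpr, scaled by TMM and tested with edgeR 4.0.16 (quasi-likelihood, R 4.3.3) over all genes with Benjamini-Hochberg adjustment at 0.05. CPM are TMM-scaled over all 36 libraries. Time contrasts were fitted within each siRNA group, siRNA contrasts within each time and the interaction over all libraries. Alternatives were DESeq2 1.42.0, limma 3.58.1 on log2 of TPM plus 1 or 0.1 (at least 1 TPM in 3 libraries, or no minimum), other scalings and filters, a replicate block, and fits without 1 replicate. Fits without single libraries were added after the data were seen, and shares of all genes called were not computed for them. The fits were tested on simulated data with larger changes than those of the members and the same spread for every gene. That test does not cover calls of the size described here. Named members were the 5 highest and lowest by TPM, the 3 largest called rises and falls per NT and siRNA contrast, members past a 1.5-fold change, members with known roles, members under the count filter and members with few counts for their TPM, and those called in the interaction were added. List examples were among the 4 largest called changes. Some genes that this rule names are not reported here. The members and lists were chosen with earlier results of these data known.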

Additional observations from a re-analysis of the deposited data

Results flagged for a closer look

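For 6 members the change from 0 h differed between IFT88siRNA and NT by the interaction test of edgeR at 1 or more single times. Of all genes, 0.784%, 0.323% and 0.425% were called in the positive direction at 1 h, 4 h and 8 h. Over the 5 times together 5.19% of the 77 tested members passed, near the 5.53% of all genes. At 1 h the difference in log2 change was 0.27 for Rpl17, 0.23 for Rpl9, 0.23 for Rps24 and 0.28 for Rps27a. At 4 h it was 0.31 for Rpl12, 0.24 for Rps24, 0.32 for Rps27a and 0.43 for Rps27l, and at 8 h 0.42 for Rps27l. Every value is positive, a smaller fall or a larger rise in IFT88siRNA. Without replicate 1 of every group 0, 0 and 0 members passed at 1 h, 4 h and 8 h, without replicate 2 the counts were 1, 2 and 1, and without replicate 3 they were 0, 1 and 0.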

How the results depend on the processing

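Values are members called. For each alternative, the counts that moved by over 1.5 times are given, and the causes were not tested. The shares of all genes called under the alternatives are not given, so these counts show only the dependence on processing. Asking for a 1.5-fold change as well left 0 at 1 h, 0 at 2 h, 1 at 4 h, 1 at 8 h, 0 at 24 h in NT, 0 at 1 h, 0 at 2 h, 0 at 4 h, 0 at 8 h, 0 at 24 h in IFT88siRNA, 0 at 0 h, 0 at 1 h, 0 at 4 h, 0 at 8 h, 0 at 24 h between IFT88siRNA and NT, 0 at 1 h, 0 at 4 h, 0 at 8 h for the difference in response, 1 for the NT times together, 0 for the differences in response together. Upper-quartile scaling gave 32 at 2 h, 72 at 4 h in NT, 25 at 1 h, 43 at 4 h in IFT88siRNA, 8 for the differences in response together. Removing a trend with gene length gave 26 at 2 h, 74 at 4 h, 48 at 8 h in NT, 15 at 1 h, 46 at 4 h, 25 at 8 h in IFT88siRNA, 12 at 1 h for the difference in response, 11 for the differences in response together. Keeping every gene with 1 count in any library gave 17 at 0 h, 3 at 2 h, 47 at 4 h, 23 at 8 h, 7 at 24 h between IFT88siRNA and NT, 11 at 1 h for the difference in response, 15 for the differences in response together. The main fits did not pair libraries by replicate number, and the correlations between libraries do not decide whether the numbers mark a pairing. The fit with a replicate block gave 3 at 0 h, 2 at 2 h, 17 at 4 h between IFT88siRNA and NT, 7 for the differences in response together. With all 36 libraries in 1 model there were 0 at 0 h, 5 at 2 h, 24 at 8 h between IFT88siRNA and NT. DESeq2 gave 2 at 2 h, 13 at 8 h between IFT88siRNA and NT, 9 at 1 h for the difference in response. On the log2(TPM + 1) scale there were 74 at 1 h, 72 at 2 h, 71 at 4 h, 52 at 8 h, 40 at 24 h in NT, 54 at 1 h, 56 at 2 h, 63 at 4 h, 24 at 8 h in IFT88siRNA, 1 at 0 h, 2 at 4 h, 0 at 8 h, 0 at 24 h between IFT88siRNA and NT, 27 at 1 h, 10 at 4 h, 5 at 8 h for the difference in response, 25 for the differences in response together. With a pseudocount of 0.1 there were 74 at 1 h, 72 at 2 h, 71 at 4 h, 51 at 8 h, 40 at 24 h in NT, 54 at 1 h, 56 at 2 h, 63 at 4 h, 24 at 8 h in IFT88siRNA, 2 at 0 h, 3 at 4 h, 0 at 8 h, 0 at 24 h between IFT88siRNA and NT, 27 at 1 h, 9 at 4 h, 4 at 8 h for the difference in response, 25 for the differences in response together. With log2(TPM + 1) and no minimum there were 74 at 1 h, 68 at 2 h, 72 at 4 h, 47 at 8 h, 29 at 24 h in NT, 42 at 1 h, 52 at 2 h, 62 at 4 h, 43 at 24 h in IFT88siRNA, 0 at 0 h, 1 at 1 h, 0 at 4 h, 0 at 8 h, 0 at 24 h between IFT88siRNA and NT, 19 at 1 h, 3 at 8 h for the difference in response, 17 for the differences in response together. The TPM share ratio for IFT88siRNA at 1 h was 0.896, against 0.865 by counts, which is more than its SD, and counts per kilobase kept 2 of the 5 highest members. As ranges, whether or not they moved, leaving out 1 replicate or, chosen after the data were seen, 1 library gave 31 to 49 at 1 h, 11 to 24 at 2 h, 29 to 43 at 4 h, 6 to 19 at 8 h, 45 to 67 at 24 h in NT, 4 to 9 at 1 h, 5 to 20 at 2 h, 8 to 17 at 4 h, 3 to 18 at 8 h, 49 to 68 at 24 h in IFT88siRNA, 0 to 19 at 0 h, 36 to 64 at 1 h, 0 to 28 at 2 h, 0 to 52 at 4 h, 0 to 30 at 8 h, 0 to 20 at 24 h between IFT88siRNA and NT, 0 to 1 at 1 h, 0 at 2 h, 0 to 2 at 4 h, 0 to 1 at 8 h, 0 at 24 h for the difference in response, 72 to 76 for the NT times together, 0 to 2 for the differences in response together. The share ratio then ranged over 0.759 to 0.792 at 1 h, 0.776 to 0.847 at 2 h, 0.737 to 0.744 at 4 h, 0.905 to 0.914 at 8 h, 1.12 to 1.15 at 24 h in NT, 0.847 to 0.879 at 1 h, 0.829 to 0.867 at 2 h, 0.788 to 0.836 at 4 h, 0.935 to 0.984 at 8 h, 1.12 to 1.19 at 24 h in IFT88siRNA, 0.993 to 1.04 at 0 h, 1.13 to 1.15 at 1 h, 1.04 to 1.11 at 2 h, 1.1 to 1.16 at 4 h, 1.07 to 1.11 at 8 h, 1.01 to 1.09 at 24 h between IFT88siRNA and NT. The sign turned on the TPM scales for Rpl10 at 2 h in NT with -0.0688 or -0.069, Rpl10a at 2 h in NT with -0.0932 or -0.0934, Rps28 at 2 h in NT with -0.0682 or -0.0683, Rps27 at 1 h between IFT88siRNA and NT with -0.873 or -0.89. Of 728 values of named members under alternatives, 572 kept direction and call, 144 lost it and 12 changed sign. Of 18 same-numbered pairs of NT and IFT88siRNA, 8 correlated above 0.1, with a median r of 0.00723. Of 36 other-numbered pairs 13 did, with a median r of 0.0112. With 3 libraries a group, counts of calls between IFT88siRNA and NT at 4 h and 8 h rested on single libraries. DESeq2 size factors and TMM without the members moved no count by over 1.5 times.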
